A study of Mus musculus with 9 samples.

Results

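The squalene to sterol demethylation enzymes of cholesterol synthesis were followed by RNA sequencing in cultures of mouse valvular interstitial cells (VICs), which are fibroblast-like and populate the leaflets of the heart valves. The 8 genes, Fdft1, Sqle, Lss, Cyp51, Tm7sf2, Msmo1, Nsdhl and Hsd17b7, were taken by symbol as the enzymes that lead from squalene synthesis through C14 and C4 demethylation of the sterol ring, and all 8 were present among the 51810 genes of the deposited matrix. The cells were from the aortic and the mitral valve of the C57BL/6J strain, with no genetic change named in the labels. In 3 samples each they received oxidised low-density lipoprotein (oxLDL) at 50 ug/mL, native low-density lipoprotein (LDL) at 50 ug/mL, or an equal amount of buffer (Control, called untreated in one label) for 24 h at 37 C and 5% CO2. All 3 groups grew in DMEM with 10% serum, insulin at 5 ug/mL, EGF at 2 ng/mL and basic FGF at 0.5 ng/mL, and the labels do not say whether serum stayed in the medium during treatment. The labels give no age or sex of the animals and do not say that the 3 samples of a group were separate cultures, so p-values rest on a spread between samples that may be only technical.

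Values are TPM, the length-corrected share of each gene among all transcripts of a library scaled to a fixed total, so levels can be compared between genes, but reads per library are unknown and fewer cells of a type cannot be told apart from less RNA per cell. Differences were taken between values of log2(TPM + 1), a scale that compresses changes at low levels, and were tested with limma over the 13495 genes whose mean reached 1 TPM, all 8 enzyme genes among them. All 9 of 9 VIC and fibroblast markers were present, with summed levels of 11820 to 14061 TPM with oxLDL, 11624 to 13085 TPM with LDL and 12430 to 13484 TPM in Control. Endothelial markers (6 of 6 at a mean of at least 1 TPM) summed to 123 to 298, 123 to 315 and 116 to 278 TPM in the same order, and macrophage markers (6 of 6) to 92.9 to 654, 211 to 657 and 210 to 440 TPM. Melanocyte markers (3 of 5) summed to at most 19.2 TPM, cardiomyocyte markers (1 of 5, Tnnt2) to at most 63.6 TPM and erythroid markers (0 of 3) to at most 2.72 TPM. The 3 treatments overlapped in every one of these sums. Of the 34 single markers 3 lay higher with LDL than in every Control library, all at low levels. Of the 13495 genes tested 757 did so, and a count of 3 among 34 is near that share. None of the 3 reached a mean of 1 TPM, so none was tested. Myh6, a cardiac myosin, had 0.67, 0.78 and 0.65 TPM with LDL against 0.06, 0 and 0 TPM in Control, Actc1, cardiac actin, had 1.95, 0.35 and 1.04 TPM against 0.31, 0.04 and 0.04 TPM, and Tyr, the melanocyte tyrosinase, had 0.67, 0.25 and 0.70 TPM against 0.20, 0.11 and 0.13 TPM. Myh6 also lay lower and Vim higher with oxLDL than with LDL without overlap, as did 567 and 555 of the genes tested. The part of other cell types in the results was not tested.

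Squalene synthase (Fdft1) commits farnesyl diphosphate to sterols by joining a pair of these molecules to squalene, squalene epoxidase (Sqle) oxidises squalene, and lanosterol synthase (Lss) folds the product into lanosterol, the first sterol. Cyp51 removes the C14 methyl group of lanosterol, Tm7sf2 reduces the double bond left at C14, and Msmo1, Nsdhl and Hsd17b7 act in turn to strip the methyl groups at C4. Transcription of this pathway is driven by SREBP2, a membrane-bound factor that is released when endoplasmic reticulum sterol is low and retained when cells take up cholesterol, for example from LDL.

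Promoters of the 8 genes were examined at the start site as a description, without a test. RefSeq promoter windows (GRCm38.p6, 250 bases before to 50 after the start) were held for 6 of the 8 genes, those of Lss, Cyp51, Tm7sf2, Msmo1, Nsdhl and Hsd17b7 and not for Fdft1 and Sqle. The windows of the 3 demethylation enzymes whose genes fell with LDL are printed here, Msmo1 under the rule and Cyp51 and Nsdhl chosen after their values were seen. Capitals mark the letters CCAAT (the NF-Y box) and GGGCGG (the SP1 box) on either strand, so that ATTGG and CCGCCC are the same boxes on the opposite strand.
Msmo1, chr8:64733529-64733828, minus strand: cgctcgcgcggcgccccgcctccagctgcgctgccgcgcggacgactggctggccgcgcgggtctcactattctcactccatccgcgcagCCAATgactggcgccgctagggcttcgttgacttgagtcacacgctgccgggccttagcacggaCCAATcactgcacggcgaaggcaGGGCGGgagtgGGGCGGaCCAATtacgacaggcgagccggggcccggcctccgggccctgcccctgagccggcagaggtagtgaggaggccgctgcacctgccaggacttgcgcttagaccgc
Cyp51, chr5:4104648-4104947, minus strand: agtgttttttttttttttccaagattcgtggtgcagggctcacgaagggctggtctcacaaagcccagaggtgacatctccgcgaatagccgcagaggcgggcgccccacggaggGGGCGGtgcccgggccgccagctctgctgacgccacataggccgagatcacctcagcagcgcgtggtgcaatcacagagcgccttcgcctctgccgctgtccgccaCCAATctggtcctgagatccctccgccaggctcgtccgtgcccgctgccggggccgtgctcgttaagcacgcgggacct
Nsdhl, chrX:72918271-72918570, plus strand: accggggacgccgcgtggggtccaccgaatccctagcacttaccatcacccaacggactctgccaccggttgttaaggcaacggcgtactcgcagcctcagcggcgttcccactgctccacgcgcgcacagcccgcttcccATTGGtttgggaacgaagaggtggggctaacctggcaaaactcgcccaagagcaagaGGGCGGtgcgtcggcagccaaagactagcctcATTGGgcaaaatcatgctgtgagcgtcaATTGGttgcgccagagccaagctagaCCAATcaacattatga
The Msmo1 window held 3 CCAAT boxes, 160, 96 and 55 bases before the start, and 2 SP1 boxes 73 and 62 bases before it. The Cyp51 window held 1 CCAAT box 29 bases before the start and 1 SP1 box, and the Nsdhl window held 4 CCAAT boxes and 1 SP1 box. CCAAT was found in 6 of the 6 windows, against 37.4% of 32851 promoter windows of the same length, and GGGCGG in 6 of 6, against 35.7%. Both were found together in 6 of 6 windows, against 12.8%. The core letters of the sterol regulatory element searched, TCACNCCAC on both strands, were in 0 of the 6 windows and in 1.24% of the 32851 windows. Only this pattern was searched, so an element that differs from it in a fixed letter was not counted. The count of 0 therefore does not show that the windows lack such an element. The searched boxes did not overlap one another in the 6 windows. Base composition differed as well, with a median GC content of 64.7% in the 6 windows and 52.7% in the 32851 windows, and its part in these shares was not tested. The 32851 windows leave out those of 1 chromosome, which holds none of the 8 genes.

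In the Control libraries Msmo1, Cyp51 and Sqle had the highest levels of the 8 genes and Tm7sf2 the lowest. The enzymes of squalene formation and oxidation come first. Fdft1 (chromosome 14, 63145150 to 63179578, GRCm38) had 25.9, 19.2 and 18.5 TPM in oxLDL 1, 2 and 3, 17.96, 16.7 and 15.4 TPM in LDL 1, 2 and 3, and 42.3, 33.9 and 27.9 TPM in Control 1, 2 and 3. The 3 treatments did not overlap, with LDL lowest and Control highest. Sqle (chromosome 15, 59315077 to 59331192) had 29.7, 24.4 and 21.7 TPM with oxLDL, 16.8, 16.7 and 14.9 TPM with LDL and 52.7, 40.8 and 37.7 TPM in Control. Again no treatment overlapped another, and the LDL libraries were the closest to one another. Lss (chromosome 10, 76531588 to 76557138) had 10.4, 14.4 and 12.1 TPM with oxLDL, 7.1, 12.1 and 9.91 TPM with LDL and 21.1, 23.7 and 17.03 TPM in Control. Both lipoprotein groups lay under all Control libraries, and they overlapped each other.

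Of the C14 enzymes, Cyp51 (chromosome 5, 4081145 to 4104746) had 34.6, 24.1 and 21.9 TPM with oxLDL, 19.7, 16.5 and 14.7 TPM with LDL and 65.6, 48.6 and 38.9 TPM in Control, with no overlap between treatments. Tm7sf2 (chromosome 19, 6062821 to 6068373) had 2.29, 1.17 and 2.78 TPM with oxLDL, 1.22, 1.49 and 0.88 TPM with LDL and 4.58, 2.09 and 3.04 TPM in Control. At this low level LDL lay under Control in every library, while oxLDL overlapped both other groups. Lbr, the lamin B receptor, a nuclear membrane protein that also has sterol C14 reductase activity, averaged 27.1 ± 3.65 TPM with oxLDL, 25.3 ± 3.26 TPM with LDL and 29.7 ± 5.55 TPM in Control (SD, n = 3 each), higher per length than Tm7sf2 in all 9 libraries.

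Of the C4 enzymes, Msmo1 (chromosome 8, 64718139 to 64733792), the methylsterol monooxygenase, had 38.4, 22.9 and 24.4 TPM with oxLDL, 24.3, 16.4 and 17.1 TPM with LDL and 79.7, 57.7 and 51.4 TPM in Control. Both lipoprotein groups lay under Control, and LDL 1 lay above oxLDL 2. Nsdhl (chromosome X, 72918557 to 72958514), the C4 decarboxylating dehydrogenase, had 18.2, 14.1 and 15.5 TPM with oxLDL, 12.6, 13.2 and 12.4 TPM with LDL and 34.6, 26.5 and 21.9 TPM in Control, with no overlap between treatments. Hsd17b7 (chromosome 1, 169949535 to 169969241), the 3-ketosteroid reductase that closes each round of C4 demethylation, had 18.5, 13.98 and 14.1 TPM with oxLDL, 11.9, 10.2 and 11.2 TPM with LDL and 28.2, 18.3 and 22.8 TPM in Control. Here LDL lay under both other groups, and oxLDL 1 lay just above Control 2.

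**Figure D1:**
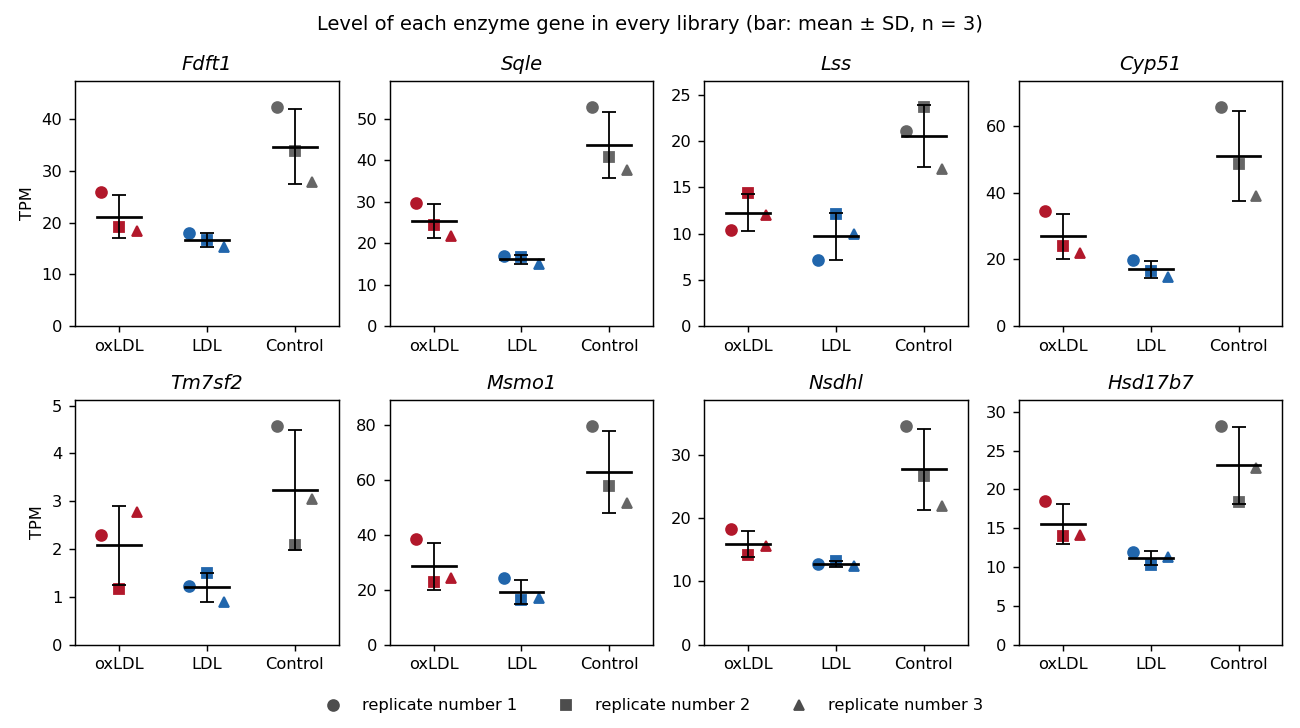
Levels in TPM (vertical axes from 0) of the 8 enzyme genes in every library, in pathway order, with oxLDL, LDL and Control from left to right, point shapes for the replicate number and bars for the mean ± SD (n = 3). In all 8 panels the LDL mean is lowest and the Control mean highest, with Msmo1 reaching 79.7 TPM in Control 1 and Tm7sf2 not above 4.58 TPM.

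The means of all 8 genes ran in the same order, lowest with LDL, intermediate with oxLDL and highest in Control. Neighbours in that order overlapped between oxLDL and LDL for Lss, Tm7sf2 and Msmo1, and between oxLDL and Control for Tm7sf2 and Hsd17b7. The kit does not mark strand, and 4 of the genes overlap another gene in their exons. Fdft1 shares 774 exon bases with Ctsb, a lysosomal protease gene on the opposite strand. Ctsb averaged 334 ± 86.0 TPM with oxLDL, 391 ± 75.7 TPM with LDL and 307 ± 40.6 TPM in Control. Its highest mean was where Fdft1 had its lowest, but its treatments overlapped in every comparison (LDL against Control, log2 difference 0.34, adjusted p = 0.946). Cyp51 shares 166 bases with Akap9 on the opposite strand (13.2 to 20.1 TPM), Lss 7390 bases with the antisense model 4930483K19Rik (0 to 0.28 TPM), and Tm7sf2 532 bases with Vps51 on the same strand. Vps51 averaged 30.9 ± 2.64 TPM with oxLDL, 34.4 ± 2.86 TPM with LDL and 37.9 ± 1.90 TPM in Control, with oxLDL under Control in every library (log2 difference -0.29, adjusted p = 0.986). Reads in these stretches cannot be told apart by strand, or for Tm7sf2 and Vps51 may be divided between the genes, and the values of Fdft1, Cyp51, Lss and Tm7sf2 are uncertain to that extent.

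Summed over the 8 genes, the level was 178, 134 and 131 TPM in the oxLDL libraries, 112, 103 and 96.4 TPM in the LDL libraries and 329, 252 and 221 TPM in the Control libraries. The mean sum was 104 ± 7.65 TPM with LDL, 2.57-fold lower than the 267 ± 55.7 TPM of Control, and 148 ± 26.3 TPM with oxLDL, 1.81-fold lower than Control (SD, n = 3 each). Shares of this sum are given as a description and were not tested. Fdft1 made up 14.3 ± 0.212% of it with oxLDL, 16.04 ± 0.101% with LDL and 13.0 ± 0.43% in Control, with no overlap between treatments. Msmo1 made up 19.1 ± 2.31% with oxLDL, 18.4 ± 3.01% with LDL and 23.5 ± 0.684% in Control, where both lipoprotein groups lay under Control. The share of Nsdhl was 12.3 ± 0.856% with LDL and 10.3 ± 0.355% in Control, without overlap. That of Cyp51 was 16.3 ± 1.21% with LDL and 18.97 ± 1.19% in Control. Its groups all but met, at 17.6455% in the highest LDL library and 17.6497% in the lowest Control library. The shares of Sqle and Hsd17b7 overlapped between LDL and Control, and those of Lss and Tm7sf2 overlapped in all 3 comparisons. That of Hsd17b7 was higher with oxLDL (10.4 to 10.8%) than in Control (7.29 to 10.3%) without overlap. That of Sqle was higher with oxLDL (16.5 to 18.2%) than with LDL (15.1 to 16.1%) without overlap.

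**Figure D2:**
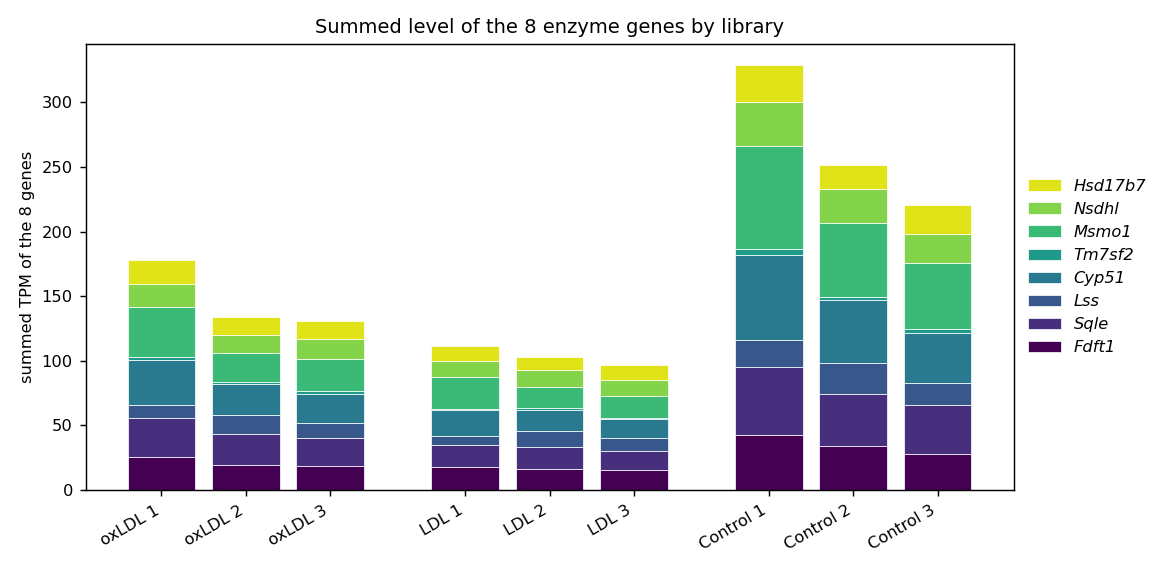
Summed TPM of the 8 enzyme genes (vertical axis from 0) in each library, stacked by gene from Fdft1 at the bottom to Hsd17b7 at the top. The sums are 131 to 178 TPM with oxLDL, 96.4 to 112 TPM with LDL and 221 to 329 TPM in Control, and Cyp51 and Msmo1 together take 41.0 to 44.2% of the sum in Control and 31.9 to 39.4% with LDL.

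LDL was compared with Control to ask what native lipoprotein does to this branch. Of the 8 genes 4 fell with LDL and 0 rose, where 0.156% of all genes tested fell and 0.178% rose. Those that fell were Sqle, Cyp51, Msmo1 and Nsdhl, so that squalene oxidation, C14 demethylation and both of the first C4 steps were each represented. Msmo1 averaged 19.2 ± 4.38 TPM with LDL against 62.9 ± 14.9 TPM in Control, a 3.27-fold lower mean (log2 change -1.66, 95% CI -2.19 to -1.12, adjusted p = 0.0265). Cyp51 averaged 17.0 ± 2.52 TPM with LDL against 51.0 ± 13.5 TPM in Control, a 3-fold lower mean (log2 change -1.51, 95% CI -2 to -1.02, adjusted p = 0.0265). Sqle was 2.71-fold lower (log2 change -1.37, 95% CI -1.70 to -1.04, adjusted p = 0.0103), with the smallest p of the 8 and rank 7 among all genes tested. Nsdhl averaged 12.7 ± 0.438 TPM with LDL against 27.7 ± 6.41 TPM in Control (log2 change -1.04, adjusted p = 0.0327).

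The other 4 genes lay lower with LDL but did not pass. Fdft1 was 2.08-fold lower (log2 difference -1, 95% CI -1.37 to -0.62, adjusted p = 0.0562), Hsd17b7 2.07-fold (-0.97, 95% CI -1.33 to -0.61, adjusted p = 0.0541) and Lss 2.12-fold (-1.03, 95% CI -1.47 to -0.59, adjusted p = 0.097). Tm7sf2 was 2.70-fold lower by its means but differed by -0.91 on the log2(TPM + 1) scale, with the widest interval of the 8 (-1.52 to -0.31, adjusted p = 0.366). With the replicate number as a block, 7 of the 8 genes fell (0.415% of all genes fell), with Fdft1 (adjusted p = 0.00424), Hsd17b7 (0.00494) and Lss (0.0193) added and Tm7sf2 not (0.167). All 8 genes had groups that did not overlap, as had 5.06% of genes tested in this direction, and their median log2 difference was -1.03, against -0.0018 over all genes tested.

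Within libraries of the same number, all 24 differences between LDL and Control (8 genes, 3 numbers) were below 0. Their medians over the 8 genes were -1.42, -0.97 and -1.03 for numbers 1, 2 and 3, and 7 genes had their largest difference in number 1. Msmo1 was the exception, at -1.67, -1.75 and -1.54, and Cyp51 had differences of -1.68, -1.50 and -1.34. Tm7sf2 varied most, at -1.33, -0.31 and -1.10. The 8 genes were correlated over the libraries, so the 24 differences, here and in the other comparisons, are not separate observations. No share over all genes was taken beside them. The count of 4 genes was 1 without Control 1 or Control 2, 2 without LDL 1, 0 without LDL 2 or LDL 3 and 2 without oxLDL 2, and between 3 and 5 without each of the other 3 libraries. It was 1 with median-ratio scaling, with quantile normalization and without a filter on low values. When the 6 compared libraries were fitted alone it was 2. Sqle was called in each of these 4 settings and in 7 of the 9 fits without 1 library. Over those 9 fits Msmo1 was called in 4, Cyp51 in 3 and Nsdhl in 2. A mean of at least 5 TPM gave 6 genes, with Fdft1 and Hsd17b7 added, and a pseudocount of 0.1 gave 5, with Hsd17b7 added.

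The same question was put to the oxidised lipoprotein by comparing oxLDL with Control. In limma 0 of the 8 genes passed (0% of all genes tested fell and 0.0148% rose), although all 8 had lower means with oxLDL, and 7 of them, all but Tm7sf2, had an unadjusted p under 0.05, as had 2.07% of genes tested in this direction. Blocking on the number, 3 genes fell, where 0.0667% of all genes did. These were Msmo1, which averaged 28.6 ± 8.58 TPM with oxLDL against 62.9 ± 14.9 TPM in Control (2.20-fold lower, log2 difference -1.13, 95% CI -1.66 to -0.59, adjusted p = 0.488, and 0.00321 with the block), Cyp51 and Sqle. Cyp51 averaged 26.9 ± 6.79 TPM with oxLDL against 51.0 ± 13.5 TPM in Control (log2 difference -0.90, adjusted p = 0.688, and 0.00911 with the block). Sqle averaged 25.2 ± 4.09 TPM with oxLDL against 43.7 ± 7.95 TPM in Control (log2 difference -0.77, adjusted p = 0.421, and 0.0215 with the block).

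The 5 other genes did not pass with or without the block. Fdft1 (-0.68, adjusted p = 0.688, and 0.0521 with the block), Lss (-0.70, 0.842 and 0.161) and Nsdhl (-0.74, 0.488 and 0.114) had libraries that did not overlap with Control, as had 6 of the 8 genes and 3.83% of genes tested. Hsd17b7, which overlapped Control in 1 library, differed by -0.53 (95% CI -0.90 to -0.17, adjusted p = 0.947). Tm7sf2 differed by -0.46 (95% CI -1.06 to 0.15, adjusted p = 1). Within libraries of the same number all 24 differences were below 0, with medians of -0.85, -0.75 and -0.61. The median over the 8 genes was -0.72, against -0.0028 over all genes, and it was -0.60 without Control 1 and -0.85 without Control 3.

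Both comparisons use the same Control libraries, so whether the lipoproteins differed was read from oxLDL against LDL directly. All 8 genes had higher means with oxLDL than with LDL, the median of their log2 differences being 0.45 (0.00087 over all genes), and 0 passed in limma, where 0.0371% of all genes rose and 0.0667% fell. At an unadjusted p under 0.05 there were 3 of the 8, Sqle, Cyp51 and Hsd17b7, against 1.60% of genes tested in this direction. Blocking on the replicate number, 3 genes rose, where 0.119% of all genes did. Cyp51 was 1.58-fold higher (log2 difference 0.61, 95% CI 0.13 to 1.10, adjusted p = 0.935, and 0.0396 with the block). Sqle was 1.56-fold higher (0.61, 95% CI 0.28 to 0.93, adjusted p = 0.494, and 0.0439 with the block). Msmo1 was 1.48-fold higher (0.53, 95% CI -0.0015 to 1.06, adjusted p = 1, and 0.0454 with the block).

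For the remaining genes the intervals of the difference between oxLDL and LDL are those of the fit without the block. They were -0.061 to 0.69 for Fdft1, -0.11 to 0.77 for Lss, -0.15 to 1.07 for Tm7sf2, -0.055 to 0.64 for Nsdhl and 0.075 to 0.80 for Hsd17b7, none of which passed with or without the block. Standard errors were smaller with the block, at 0.0845 against 0.166 for Fdft1 and 0.09 against 0.16 for Hsd17b7. They were 0.131 against 0.193 for Lss, 0.122 against 0.154 for Nsdhl and 0.244 against 0.268 for Tm7sf2. For the 3 genes that rose with the block they were 0.0703 against 0.235 (Msmo1), 0.0773 against 0.215 (Cyp51) and 0.0791 against 0.145 (Sqle). Of 24 differences within the same number 23 were above 0, and the 1 below 0 was that of Tm7sf2 in number 2 (-0.20). The groups did not overlap for 5 of the 8 genes, namely Fdft1, Sqle, Cyp51, Nsdhl and Hsd17b7, as for 4.11% of genes tested in this direction.

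**Figure D3:**
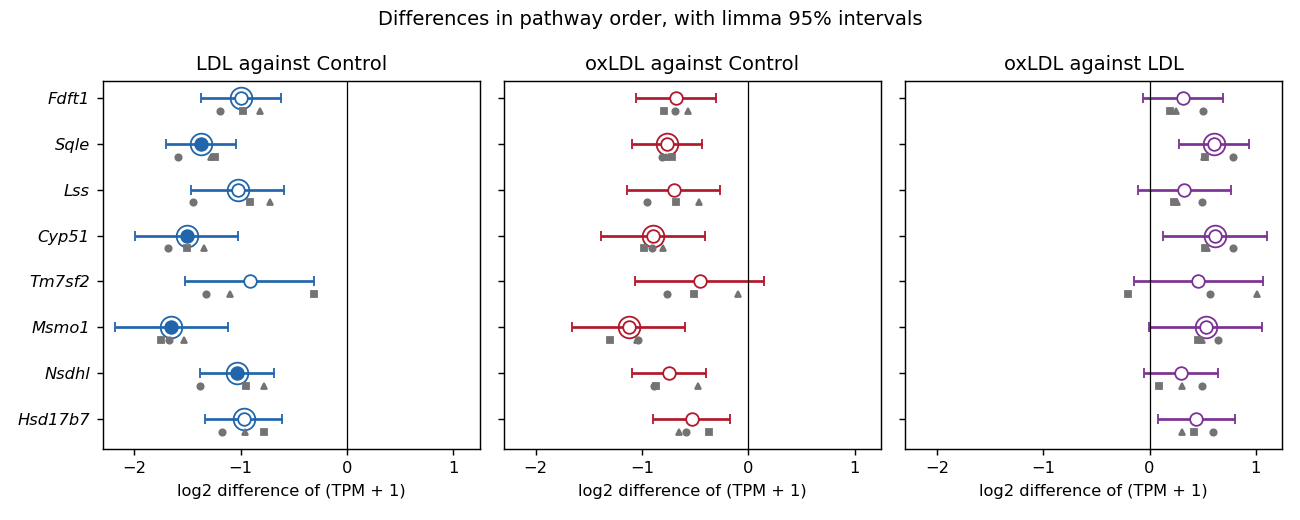
Log2 differences of (TPM + 1) for the 8 genes in pathway order from top to bottom, with limma 95% intervals; filled circles passed an adjusted p under 0.05, outer rings passed with the replicate number as a block, and small grey marks are the differences within numbers 1 (circle), 2 (square) and 3 (triangle). The largest difference is that of Msmo1 between LDL and Control (-1.66), no gene is filled in the other panels, and Msmo1, Cyp51 and Sqle are ringed in all 3.

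Neighbouring lists of the pathway were counted in the same way. Of the 8 genes of the mevalonate arm, which makes farnesyl diphosphate, 4 fell with LDL and 0 rose (median log2 difference -0.97), and 8 fell with the block. Among these were Idi1, an isomerase of the isoprenoid units (-1.84, adjusted p = 0.0202), and Fdps, which makes the substrate of Fdft1 (-1.72, adjusted p = 0.0264). Of the 4 genes of the final sterol steps 3 fell, also with the block (median -0.95), among them Sc5d, the sterol C5 desaturase (-0.89, adjusted p = 0.0327). Ebp, the isomerase that acts directly after C4 demethylation, had 30.6 ± 1.44 TPM with LDL and 31.7 ± 2.16 TPM in Control (difference of -0.048 on the log2 scale, 95% CI -0.23 to 0.13, adjusted p = 1).

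Of the 9 electron donors, scaffolds and related proteins of these steps 1 fell with LDL and 0 rose, also with the block (median 0.066). It was 0610007P14Rik, now named Erg28, a scaffold of the C4 demethylation complex in yeast, at 36.4 ± 1.23 TPM with LDL against 53.8 ± 3.62 TPM in Control (log2 change -0.55, adjusted p = 0.0251). Por, the reductase that feeds electrons to Cyp51 and Sqle, had 173 ± 20.2 TPM with LDL and 136 ± 1.41 TPM in Control (difference of 0.34 on the log2 scale, adjusted p = 0.226), opposite in sign to both enzymes. Lbr differed by -0.22 (95% CI -0.56 to 0.13, adjusted p = 0.956). Of 8 genes of the non-sterol branches from farnesyl diphosphate, which serve protein prenylation, ubiquinone and dolichol, 0 passed in limma in any comparison and 0 had an unadjusted p under 0.05 for LDL against Control, as had 6.65% of all genes tested in either direction, with differences between -0.12 and 0.06. A count of 0 among 8 genes is near that share, and whether this list differs from the sterol steps was not tested. Of 8 SREBP control genes 3 fell with LDL, among them Srebf2, which encodes SREBP2, at 24.4 ± 1.89 TPM with LDL against 47.7 ± 6.05 TPM in Control (log2 change -0.94, adjusted p = 0.0171). With the block 4 fell, Srebf1, which encodes SREBP1, being added (-0.48, adjusted p = 0.0707, and 0.0345 with the block). Leaving out Control 1 or Control 2 gave 1, 0, 0 and 1 genes that fell with LDL in the mevalonate, final-step, electron-donor and SREBP control lists, and leaving out LDL 2 or LDL 3 gave 0, 0, 0 and 1. The mevalonate count was 2 without LDL 1 or oxLDL 2, the final-step count was 1 without oxLDL 2, and the electron-donor count was 0 without LDL 1. Idi1 and Srebf2 were each called in 5 of these 9 fits, 0610007P14Rik in 4, Fdps in 3 and Sc5d in 2. For oxLDL against Control 0 genes of these 5 lists passed, and with the block 3, 1, 0, 0 and 1 fell in the order given here. For oxLDL against LDL 0, 0, 0, 0 and 1 rose in the same order, and 1, 1, 0, 0 and 2 with the block, where Srebf2 was among those of the SREBP control list (0.59, adjusted p = 0.203, and 0.0184 with the block). The 1 gene that rose without the block was called without Control 1 or Control 2 and in 0 of the 7 fits that left out another library.

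**Figure D4:**
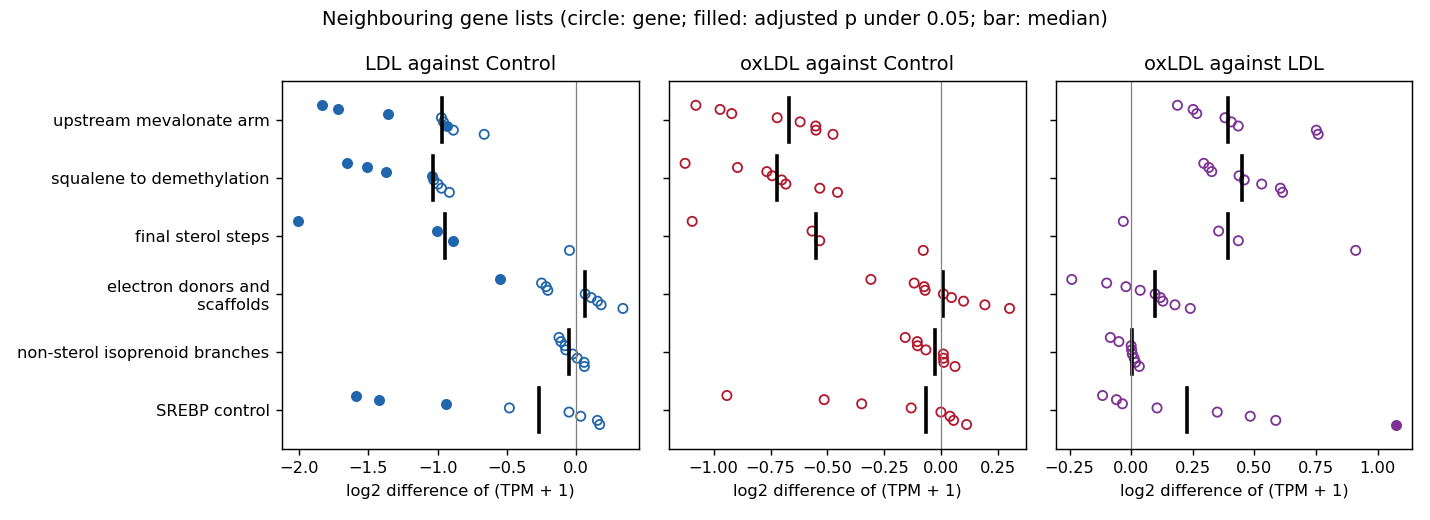
Log2 differences of (TPM + 1) of the 8 enzyme genes and of 5 neighbouring gene lists, 1 circle a gene, filled where the adjusted p was under 0.05, with a bar at the median of each list. For LDL against Control the medians are -0.97, -1.03 and -0.95 in the 3 consecutive stretches of the pathway and -0.05 in the non-sterol branches.

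The genes with the profile most like that of the 8 were named by Pearson's r, over the 9 libraries, with the mean of the 8 standardised profiles. Each of the 8 was itself correlated with the mean of the other 7 at 0.95 to 0.99, except Tm7sf2 (0.83) and Lss (0.78). Among the 8 highest outside the branch were Hmgcs1, a synthase of the mevalonate arm (0.99), Idi1 (0.99), Fdps (0.99) and Mvk, mevalonate kinase (0.98). Insig1, which retains SREBP in the endoplasmic reticulum (0.99), was another. So were 2 genes of fatty acid metabolism, Fads1, a desaturase (0.98), and Elovl6, an elongase (0.98). The 99th percentile over the other genes tested was 0.80. The 9 points share treatments and replicate numbers, so the values describe these libraries and carry no test. Elovl6 averaged 9.56 ± 1.20 TPM with oxLDL, 7.33 ± 0.211 TPM with LDL and 14.5 ± 2.65 TPM in Control. Its order of treatments is that of the 8 enzyme genes, which comes with its selection by profile and is no separate finding.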

How the data were processed

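RNA was sequenced in 100 bp pairs from libraries of amplified cDNA made from 50 ng total RNA, per the labels' protocols. The authors deposited TPM values, made with STAR (no version given) and RSEM 1.3.1 on mm10, per the submitters' processing notes, with an annotation not given in the sources used here. TPM keeps no depth, so the precision per library is unknown and no counting interval is given. All 9 columns matched a sample title, and 0 columns belonged to no sample.

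From these, log2(TPM + 1) was fitted for 13495 genes whose mean over the 9 libraries reached 1 TPM, leaving out 38315, using limma 3.58.1 under R 4.3.3 (lmFit, contrasts.fit, eBayes with a mean-dependent prior, 6 residual degrees of freedom), two-sided, with Benjamini-Hochberg adjustment over all genes tested and a threshold of 0.05. The fit was tested on simulated data. Every adjusted p is limma's. Replicate numbers were read from the titles. After subtracting group means, the 9 same-number pairs of libraries correlated at 0.172 to 0.497 over genes, and the 18 other pairs at -0.309 to 0.13. By this check alone, no label naming what they share, the numbers pair the samples. The fit without the number is the main one and gives every interval. A fit that blocks on the number (4 residual degrees of freedom) is given where it changes a call or a list's count.

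The members and lists were chosen with earlier results of these data known. All 8 enzyme genes are named in every comparison, other lists by count and up to 4 genes of smallest p for LDL against Control, Lbr, Por and Srebf2 whatever their result, and similar profiles by the 8 highest correlations with clone-named models left out. Some genes selected by this rule are left out of the report. Which of the similar genes to give levels for (Elovl6) was decided with values known. Gene positions are from GENCODE M21 (GRCm38) and promoters from RefSeq (GRCm38.p6). Other settings tried are given in the closing section.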

Additional observations from a re-analysis of the deposited data

How the results depend on the processing

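The count of 4 enzyme genes called for LDL against Control was 7 with the replicate block. It was 6 at a mean of at least 5 TPM and 5 with a pseudocount of 0.1. It was 1 without a filter on low values, 1 with median-ratio scaling and 1 with quantile normalization. With the 6 compared libraries alone the count was 2, and it ran from 0 to 5 when 1 library was left out. With the replicate block it was 3, against 0, for oxLDL against Control and 3, against 0, for oxLDL against LDL, and it was 0 in every other setting run for both, leaving out a library included. The cause of these moves was not tested. The median difference of the 8 genes ran from -1.17 to -0.94 (LDL against Control), -0.85 to -0.60 (oxLDL against Control) and 0.35 to 0.56 (oxLDL against LDL) without 1 library, and the last was 0.30 with a pseudocount of 5, an alternative for this median chosen after seeing the data. Of 405 values of single enzyme genes under other settings 0 changed direction, 31 lost a call and 14 gained one. In the neighbouring lists, compared in these settings after seeing the data, 1 mevalonate gene fell with LDL without the filter and 2 did with the 6 libraries alone; in the final steps 0 fell without the filter and 1 with either scaling or the 6 libraries alone; and 0 electron donors fell in these 4 settings, in which 0 SREBP control genes rose with oxLDL against LDL. Tm7sf2 was not tested at a mean of at least 5 TPM. Over all genes, 45 calls for LDL against Control (21 lower and 24 higher) became 115 with the block, 19 without the filter, 20 with the 6 libraries alone and 4 to 38 without 1 library; median-ratio scaling gave 12 lower and 23 higher, and quantile normalization 12 and 22. The 2 calls for oxLDL against Control became 17 with the block, 10 without the filter, 1 with a pseudocount of 5 and 1 with the 6 libraries alone. The 14 for oxLDL against LDL (9 lower and 5 higher, 12 and 4 with median-ratio scaling) became 35, 8 without the filter and 7 with the 6 libraries, and 1 to 13 without 1 library. Reads per library are unknown, which limits all 8 genes.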

Other observations

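The library numbered 1 had the highest level of its treatment for 6 of the 8 enzyme genes with oxLDL, 5 with LDL and 7 in Control. Of all genes tested, 25.3%, 25.95% and 31.2% had their highest level in number 1 of oxLDL, LDL and Control. Number 1 also had the highest endothelial marker sum of each treatment, 298 TPM with oxLDL (123 and 154 TPM in numbers 2 and 3), 315 TPM with LDL (123 and 134 TPM) and 278 TPM in Control (116 and 184 TPM), and 5 of the 6 endothelial markers were highest there in each treatment. Emcn, an endothelial surface protein, had 109, 117 and 92.8 TPM in number 1 of oxLDL, LDL and Control, and the part of endothelial cells in the enzyme levels was not tested. The fibroblast markers Col1a1, Col1a2, Thy1 and Postn were also highest in number 1 of every treatment. So were the cardiomyocyte markers Tnnt2, Myl7 and Actc1 and the melanocyte markers Tyrp1 and Mlana, all but Tnnt2 at low levels. Thy1, for example, had 507, 389 and 443 TPM there with oxLDL, LDL and Control. The fibroblast markers Dcn and Pdgfra were not highest in number 1 of any treatment, and Vim, Col3a1 and Lum were so in some treatments only. No macrophage marker was highest in number 1 with oxLDL. Among the 8 enzyme genes Lss ran the other way within the lipoprotein groups, where number 1 was the lowest library with oxLDL (10.4 TPM, against 14.4 and 12.1 TPM) and with LDL (7.1 TPM, against 12.1 and 9.91 TPM). In both groups number 2 was the highest for Lss, as it was in Control (23.7 TPM, against 21.1 and 17.03 TPM).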
